A study of Mus musculus with 16 samples.

Results

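The salt-inducible kinases and the genes of the cAMP and CREB pathway were followed across 4 diets in splenic B cells of NOD.LT mice. The 9 gene symbols (Sik1, Sik2, Sik3, Crem, Creb1, Crtc2, Crtc3, Pde4b and Pde4d) were looked up by name in the count table and matched 10 of its 39179 genes, since Pde4d names 2 identifiers. All 10 passed the filter on low counts, as did 15021 genes in all. The set was chosen by the levels of Sik1 and Crem, which differ between the diets in these libraries, so the diet differences of these 2 genes are given as a description and support nothing, while the other 8 were tested.

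Libraries of poly(A) RNA came from total B cells enriched by negative selection, in which antibodies and columns hold back the other spleen cells. NOD.LT is a non-obese diabetic strain, and every mouse was 15 weeks old and had eaten its diet for 5 weeks. The 3 starch diets were HAMSB (butyrylated high-amylose maize starch), HAMSA (acetylated high-amylose maize starch) and HAMS (high-amylose maize starch with neither acid), as these names are used in the field. The fourth diet, NP, also appears under the name Gordons and is the comparator. The labels do not give its composition, so NP may differ from the starch diets in more than the starch. Each diet had 4 libraries, as the design text gives them, although that text also speaks of triplicates. Libraries are named here by the number in their labels, and nothing says which animals or cages the numbers stand for, so p-values measure the spread between these libraries.

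Cyclic AMP, made by adenylyl cyclases after Gs-coupled receptors are engaged, activates protein kinase A (PKA). PKA phosphorylates the transcription factor CREB and also the salt-inducible kinases, and phosphorylated kinases lose their hold on the CRTC coactivators and class IIa histone deacetylases, which 14-3-3 proteins otherwise keep in the cytoplasm. CRTC proteins then enter the nucleus and join CREB on target genes, among them Sik1 and Crem themselves, and phosphodiesterases end the signal by breaking down cAMP. In lymphocytes cAMP is known mainly as a brake on activation.

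Depth differed between diets, with 34720317 to 46206200 counts in HAMSB, 15053965 to 30723337 in HAMSA, 31826691 to 37929476 in HAMS and 31707731 to 42752976 in NP. The B cell markers Ms4a1 and Cd79a were high in all 16 libraries, at 700 to 1650 and 1790 to 3074 CPM (counts scaled to the library total). Markers of other cells were also present: 5 erythroid genes summed to 9.99 to 737 CPM in HAMSB, 259 to 3195 in HAMSA, 11.9 to 45.0 in HAMS and 34.0 to 708 in NP, and 5 macrophage genes summed to 4.94 to 26.2, 21.6 to 42.5, 3.52 to 19.8 and 59.6 to 126 CPM in the same order. Sums of 5 genes each ran from 18.3 to 119 CPM in HAMSB, 22.8 to 90.4 in HAMSA, 10.3 to 52.9 in HAMS and 11.5 to 33.2 in NP for T cells, and from 31.4 to 194, 54.7 to 245, 3.62 to 82.0 and 6.44 to 48.6 CPM for neutrophils. For NK cells they ran from 9.34 to 52.3, 11.9 to 31.4, 9.95 to 16.3 and 10.5 to 14.6 CPM, and for platelets from 60.2 to 154, 67.2 to 144, 92.4 to 212 and 54.9 to 164 CPM. The median log2 fold change in HAMSB against HAMS was 1.45 for the T cell, 1.66 for the NK cell, 1.46 for the neutrophil and −0.90 for the platelet genes, with 0 of them called. In HAMSA against NP it was 2.99, 3.01 and 3.28 for T cell, NK cell and neutrophil genes, with 1 NK cell and 1 neutrophil gene called higher. Of 6 B cell genes 1 was called lower in HAMSA against NP and 1 in HAMS against NP. In HAMS against NP 4 of the 5 macrophage genes were called lower (median −2.44), and 1 was in HAMSB against NP. The erythroid median was 3.41 in HAMSB against HAMS, 4.73 in HAMSA against HAMS and −2.75 in HAMS against NP, with 0 called. The part of these other cells in the results below was not tested. In such mixtures, fewer cells of a type and less RNA per cell cannot be told apart. Genes that respond to cell handling moved with the diets as a sum: 11 immediate early and heat shock genes summed to 818 to 869 CPM in HAMSB, 964 to 2013 in HAMSA, 1408 to 2226 in HAMS and 783 to 936 in NP. Single genes differed, and 2 of the 11 had higher values in HAMSB than in HAMS. Egr1 had 20.5 to 35.5 CPM in HAMSB and 21.9 to 25.9 in HAMS, and Zfp36 had 285 to 316 and 225 to 375 CPM. None of these 11 is on the lists used below, but the CREB targets there include other immediate early genes, such as Fos, Fosb and Junb. The handling genes and the CREB targets are thus not separate kinds of gene. In HAMSB and HAMS, libraries numbered 5 and 6 had more reads outside annotated exons than libraries numbered 1 to 4 (15.7% to 16.9% against 12.6% to 13.7% in HAMSB, 14.8% to 16.4% against 11.2% to 13.04% in HAMS), and values within these number classes are given where they matter.

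Sik1, the member of the kinase family whose own transcription is induced by cAMP, lies on the minus strand at chr17:31844250-31855804 (GRCm38, GENCODE M21). It stood at 52.5, 53.1, 54.6 and 52.1 CPM in HAMSB libraries 1, 2, 5 and 6. HAMSA libraries 1, 2, 3 and 6 had 123, 74.1, 121 and 283 CPM, HAMS libraries 1, 4, 5 and 6 had 280, 330, 347 and 421 CPM, and NP libraries 1, 3, 4 and 5 had 130, 76.0, 113 and 131 CPM. All HAMSB libraries lay below all libraries of the other diets, and all HAMS libraries lay above all those of NP and HAMSB. Of all genes, 4.11% lay lower in this way in HAMSB against HAMS, 4.65% in HAMSB against HAMSA and 3.06% in HAMSB against NP, and 6.06% lay higher in HAMS against NP. HAMSA library 6 reached the level of HAMS library 1 and was the only HAMSA library to do so. The spread was also unequal: the coefficient of variation was 2.09% in HAMSB, 60.7% in HAMSA, 16.9% in HAMS and 22.8% in NP.

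In the fitted model Sik1 differed by a log2 fold change of −2.70 ± 0.31 (SE) in HAMSB against HAMS, which is 6.49-fold lower, and by −1.50 ± 0.30 in HAMSB against HAMSA. Between HAMSB and NP the log2 fold change was −1.08 ± 0.29, and in HAMSA against HAMS it was −1.20 ± 0.29. HAMSA and NP overlapped, with a log2 fold change of 0.42 ± 0.29 that became −0.09 without HAMSA library 6. HAMS stood above NP by 1.61 ± 0.30 on the log2 scale, or 3.06-fold. The order of the diets for Sik1 was therefore HAMSB, NP, HAMSA and HAMS from low to high, with NP and HAMSA not separated beyond their spread.

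Crem encodes the cAMP-responsive element modulator, with activator isoforms and the short inducible repressor ICER, and gene counts do not separate these isoforms. The gene lies on the minus strand at chr18:3266048-3337748. HAMSB libraries 1, 2, 5 and 6 had 12.5, 13.4, 17.5 and 15.3 CPM. HAMSA libraries 1, 2, 3 and 6 had 17.6, 16.3, 14.8 and 33.9 CPM, HAMS libraries 1, 4, 5 and 6 had 25.8, 71.6, 67.8 and 86.7 CPM, and NP libraries 1, 3, 4 and 5 had 15.96, 10.9, 13.1 and 12.5 CPM. The HAMS libraries were all above those of HAMSB and NP, HAMS library 1 was far below the other HAMS libraries, and HAMSA library 6 was again the highest of its diet and lay above HAMS library 1. HAMSB and NP overlapped.

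The log2 fold change of Crem was −2.10 ± 0.31 in HAMSB against HAMS (4.29-fold lower), −1.61 ± 0.31 in HAMSA against HAMS and 2.26 ± 0.32 in HAMS against NP (4.802-fold higher). It was −0.49 ± 0.31 in HAMSB against HAMSA, 0.16 ± 0.31 in HAMSB against NP and 0.65 ± 0.31 in HAMSA against NP. Sik1 in HAMSB thus lay below NP in every library, while Crem in HAMSB overlapped NP. The ratio of Sik1 CPM to Crem CPM was 3.12 to 4.21 in HAMSB libraries, 4.55 to 8.32 in HAMSA, 4.61 to 10.9 in HAMS and 7 to 10.4 in NP. The ratio was lower in every HAMSB library than in every library of the other diets. It was highest in HAMS library 1, where Sik1 stood near the rest of its diet and Crem did not.

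**Figure D1:**
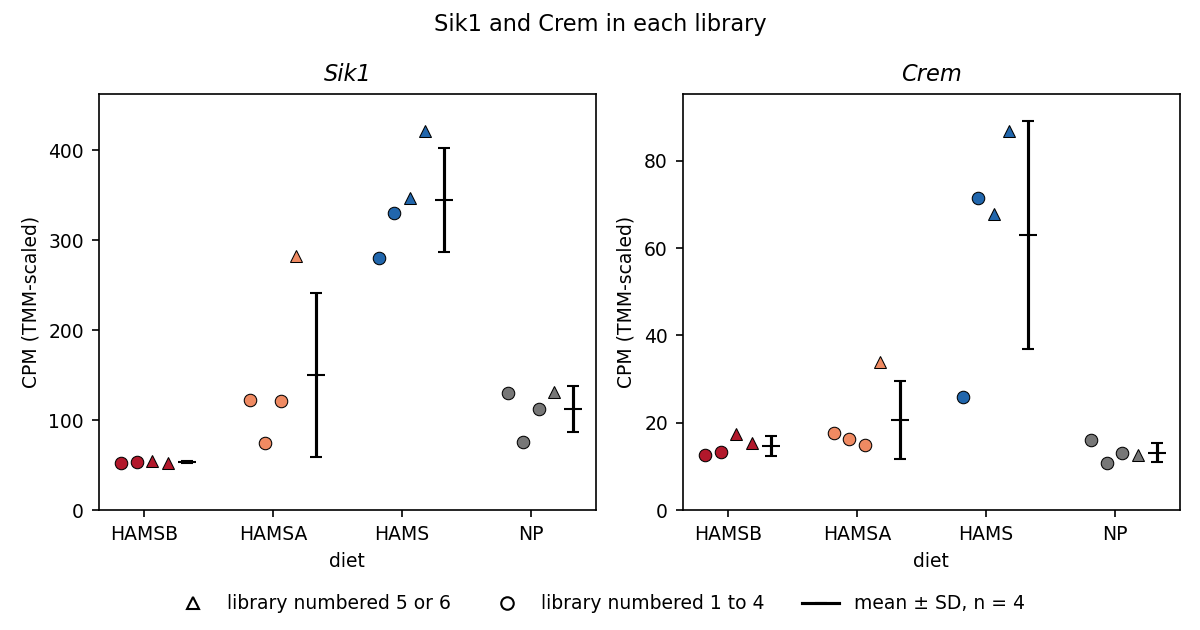
Sik1 (left) and Crem (right) in CPM on linear axes from 0, one point per library (triangles for numbers 5 and 6), with a bar of mean ± SD beside each diet's 4 points. Sik1 sits at 52.1 to 54.6 CPM in HAMSB and at 280 to 421 CPM in HAMS, and HAMSA library 6 stands above the other HAMSA libraries in both panels.

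Across the 10 genes, edgeR's quasi-likelihood test (Benjamini-Hochberg adjusted p under 0.05 over all 15021 genes) called 2 lower in HAMSB against HAMS, where 1.24% of all genes were called lower. It called 1 lower in HAMSB against HAMSA (0.586% of all genes), 2 higher in HAMS against NP (2.27%) and 0 in HAMSA against HAMS (0%), HAMSB against NP (0.0732%) and HAMSA against NP (1.41%). The called genes were Sik1 and Crem, and in HAMSB against HAMSA Sik1 alone. These counts restate the choice of the genes. DESeq2 called both genes in HAMSA against HAMS as well, and Sik1 in HAMSB against NP. Of all genes it called 103 of 15010 and 124 of 15010 there. In HAMSB against HAMSA, Sik1 lost its call when any 1 of the HAMSB libraries or HAMSA library 3 was left out, and its log2 fold change lay between −1.72 and −0.996 over all omissions. In HAMSA against HAMS, both genes were called without HAMSA library 6, and Crem without HAMS library 1.

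In the fit of all 16 libraries, with 1 mean per diet, none of the other 8 genes passed in any of the 6 comparisons. Among libraries numbered 1 to 4 alone, Sik2 passed in HAMSA against NP and in HAMS against NP, and the second Pde4d identifier in HAMS against NP. Calls were common in that setting, with 2694 of 15350 genes passing in HAMSA against NP and 1250 of 15350 in HAMS against NP. Of the 48 tests of the 8 genes in the fit of all 16 libraries, 7 had an unadjusted p under 0.05, and the smallest adjusted p was 0.125 (edgeR). These 7 were 3 in HAMSB against HAMS, 1 in HAMSB against HAMSA, 1 in HAMSA against NP, 2 in HAMS against NP and 0 in HAMSA against HAMS and HAMSB against NP. Of all genes, 14.1%, 19.4%, 25.1%, 19.3%, 11.7% and 6.89% had such a p in these comparisons, in the same order. DESeq2 called 1 of the 8, the second Pde4d identifier in HAMSB against HAMS, where it called 603 of 14136 genes. In a test of any difference among the 4 diets, the adjusted p of the 8 ran upwards from 0.131 (Sik3) and 0.161 (the second Pde4d identifier), with 3.78% of all genes called. The comparisons share libraries, so a value in one is not independent of the next.

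Sik2, a kinase of the same family known for holding CRTC proteins in the cytoplasm, lies at chr9:50892801-51009073 on the minus strand. It had 33.9, 26.1, 51.4 and 41.8 CPM in HAMSB, 29.4, 19.9, 17.8 and 38.1 CPM in HAMSA, 20.8, 26.1, 45.7 and 45.1 CPM in HAMS and 37.4, 39.2, 39.7 and 32.2 CPM in NP, with libraries in the order given for Sik1. The diets overlapped in every comparison. In the 3 starch diets the libraries numbered 5 and 6 were above those numbered 1 to 4, and in NP library 5 was the lowest. The log2 fold changes between diets ran between −0.50 and 0.54, with 0.54 in HAMSB against HAMSA (95% interval −0.06 to 1.14, adjusted p = 0.283, edgeR), where it became −0.21 with the fraction of reads that fell outside exons added as a covariate.

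Sik3, a broadly expressed kinase of the family and like Sik2 a substrate of PKA, lies on the plus strand of the same chromosome at chr9:46012820-46224194. HAMSB libraries had 87.5, 80.97, 117 and 117 CPM, HAMSA libraries 74.5, 71.1, 84.0 and 84.7 CPM, HAMS libraries 65.5, 85.0, 77.1 and 81.8 CPM, and NP libraries 86.3, 99.1, 109 and 91.9 CPM. Every HAMSA library and every HAMS library was below every NP library, a separation that 8.67% of all genes showed in that direction in HAMSA against NP and 6.55% in HAMS against NP. Its log2 fold change was 0.38 ± 0.13 in HAMSB against HAMS (adjusted p = 0.187), 0.36 ± 0.13 in HAMSB against HAMSA (adjusted p = 0.181), −0.30 ± 0.13 in HAMSA against NP (adjusted p = 0.165) and −0.32 ± 0.13 in HAMS against NP (adjusted p = 0.174, edgeR throughout). It was 0.02 ± 0.13 in HAMSA against HAMS and 0.05 ± 0.13 in HAMSB against NP. Sik3 values thus lay opposite in sign to those of Sik1 in HAMSB against HAMS and in HAMS against NP, and none of them passed the test in the fit of all 16 libraries.

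CREB binds DNA at the palindrome TGACGTCA and at its shorter form TGACG, so both were searched on both strands (TGACG or CGTCA, overlaps counted separately) in the 300 bases from 250 before to 50 after each start site in RefSeq (GRCm38.p6). Of 32851 such windows, 20.8% held the shorter form and 1.79% the palindrome. For the members 9 windows of 6 genes were in the table, and 3 of them held the shorter form, in Sik2, Sik3 and Pde4b. Sik1, Crem and Crtc2 had no window there, so their promoters were not searched. The windows of Sik2 (chr9:51009024-51009323, minus strand, 2 matches) and Sik3 (chr9:46012570-46012869, plus strand, 3 matches, where 1.03% of all windows had 3 or more) are printed with matches in capitals, since both kinases carry the motif. A match is a description of letters, not a bound site.
Sik2: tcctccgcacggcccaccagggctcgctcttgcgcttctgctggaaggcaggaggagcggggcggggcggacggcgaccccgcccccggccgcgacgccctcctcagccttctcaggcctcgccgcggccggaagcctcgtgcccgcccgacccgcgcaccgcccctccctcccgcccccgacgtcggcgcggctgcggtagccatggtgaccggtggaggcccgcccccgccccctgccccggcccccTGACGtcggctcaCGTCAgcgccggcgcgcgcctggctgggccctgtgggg
Sik3: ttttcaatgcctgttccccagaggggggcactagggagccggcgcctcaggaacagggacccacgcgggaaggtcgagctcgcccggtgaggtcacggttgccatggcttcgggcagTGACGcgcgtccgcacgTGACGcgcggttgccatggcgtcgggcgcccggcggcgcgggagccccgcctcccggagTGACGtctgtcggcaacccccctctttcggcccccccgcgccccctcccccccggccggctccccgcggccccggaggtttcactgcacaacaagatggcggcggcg

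Creb1 encodes CREB itself, the factor that PKA phosphorylates, at chr1:64532645-64604548 on the plus strand. It ranged between 121 and 150 CPM in HAMSB, 82.8 and 142 CPM in HAMSA, 111 and 183 CPM in HAMS and 102 and 143 CPM in NP. All diets overlapped, and the log2 fold changes lay between −0.36 and 0.27, with 95% intervals that together span −0.77 to 0.68. Per kilobase of exon, Creb1 averaged 8.005 to 10.3 CPM in the 4 diets. Crem, per kilobase, averaged 2.49 ± 0.379 CPM in HAMSB, 3.51 ± 1.51 in HAMSA, 10.7 ± 4.42 in HAMS and 2.23 ± 0.360 in NP (SD, n = 4). On that scale Crem was below Creb1 in HAMSB, HAMSA and NP, and the 2 genes stood at like levels in HAMS.

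The CRTC coactivators are the substrates through which salt-inducible kinases act on CREB. Crtc2, at chr3:90254163-90264125 on the plus strand, was the member with the highest level per kilobase of exon after averaging over libraries, 50.3 ± 5.07 CPM in HAMSB, 53.1 ± 5.97 in HAMSA, 55.0 ± 3.97 in HAMS and 52.5 ± 4.46 in NP (SD, n = 4). Per kilobase, Sik1 averaged 10.3 ± 0.216 CPM in HAMSB, 29.2 ± 17.7 in HAMSA, 67.1 ± 11.3 in HAMS and 21.9 ± 5.00 in NP, below Crtc2 in every diet but HAMS. Crtc2 log2 fold changes lay between −0.13 and 0.07 and their 95% intervals together within −0.35 to 0.29, the narrowest span of the 8 genes. Crtc3, at chr7:80586627-80688877 on the minus strand, held 4.59 to 5.27 CPM per kilobase as diet means, with log2 fold changes between −0.15 and 0.20 and intervals within −0.40 to 0.45. For neither coactivator did any 2 diets separate.

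Pde4b and Pde4d encode cAMP-specific phosphodiesterases that lower cAMP in lymphocytes. Pde4b, at chr4:102087543-102607259 on the plus strand, had 179, 173, 237 and 197 CPM in HAMSB and 173, 137, 106 and 205 CPM in HAMSA. It had 161, 177, 211 and 232 CPM in HAMS and 160, 163, 152 and 165 CPM in NP. All HAMSB libraries were above all NP libraries, as for 2.21% of all genes, with a log2 fold change of 0.30 ± 0.17 (adjusted p = 0.853, edgeR). In the starch diets the libraries numbered 5 and 6 were the higher ones, as for Sik2 and Creb1. These 3 of the 10 genes had that order in all 3 starch diets, and 11.3% of all 15021 genes did.

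Pde4d appears under 2 identifiers. The one placed at chr13:108449948-109953461 on the plus strand had 27.5, 24.5, 10.3 and 23.2 CPM in HAMSB, 25.9, 28.4, 16.4 and 41.0 CPM in HAMSA, 28.6, 41.1, 64.7 and 21.5 CPM in HAMS and 35.4, 31.2, 35.4 and 34.3 CPM in NP. All HAMSB libraries were below all NP libraries, as for 3.06% of all genes, and the starch diets overlapped. Its log2 fold change was −0.87 ± 0.33 in HAMSB against HAMS (adjusted p = 0.246, edgeR). The other identifier, ENSMUSG00000074661, has no entry in GENCODE M21, so its position and length are not given. It had 7.45, 9.71, 3.002 and 6.06 CPM in HAMSB, 9.10, 10.98, 10.4 and 8.45 CPM in HAMSA, 11.8, 16.2, 17.9 and 6.95 CPM in HAMS and 8.04, 7.56, 7.23 and 9.40 CPM in NP. HAMS libraries other than number 6 were the highest of all libraries. Its log2 fold change was −1.01 ± 0.30 in HAMSB against HAMS (adjusted p = 0.125, edgeR), the smallest adjusted p of the 8 genes, and it passed there without HAMS library 6. It was 0.71 ± 0.30 in HAMS against NP (adjusted p = 0.203). Whether reads were split between the 2 identifiers was not tested.

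**Figure D2:**
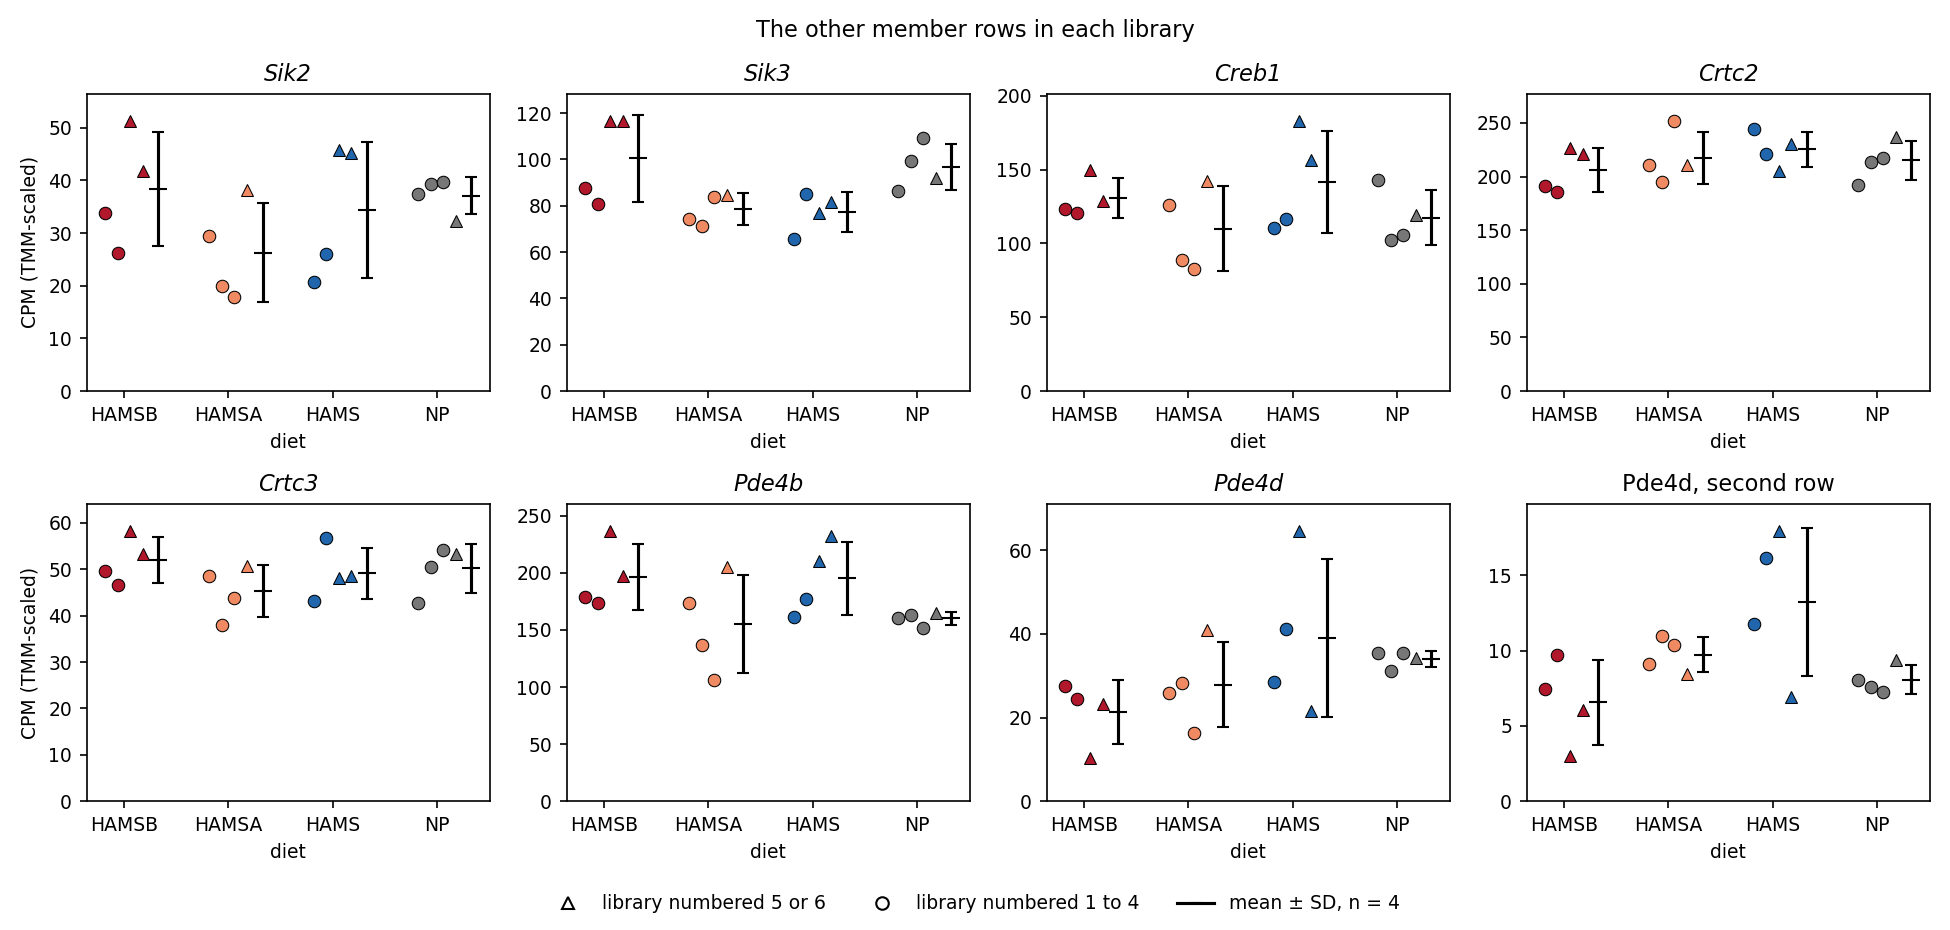
CPM of the 8 genes other than Sik1 and Crem (the second row of Pde4d is ENSMUSG00000074661), one panel per gene on a linear axis from 0, one point per library (triangles for numbers 5 and 6), with a bar of mean ± SD beside each diet's 4 points. The diets overlap in most panels, and Sik3 is lower in every HAMSA and HAMS library than in every NP library.

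**Figure D3:**
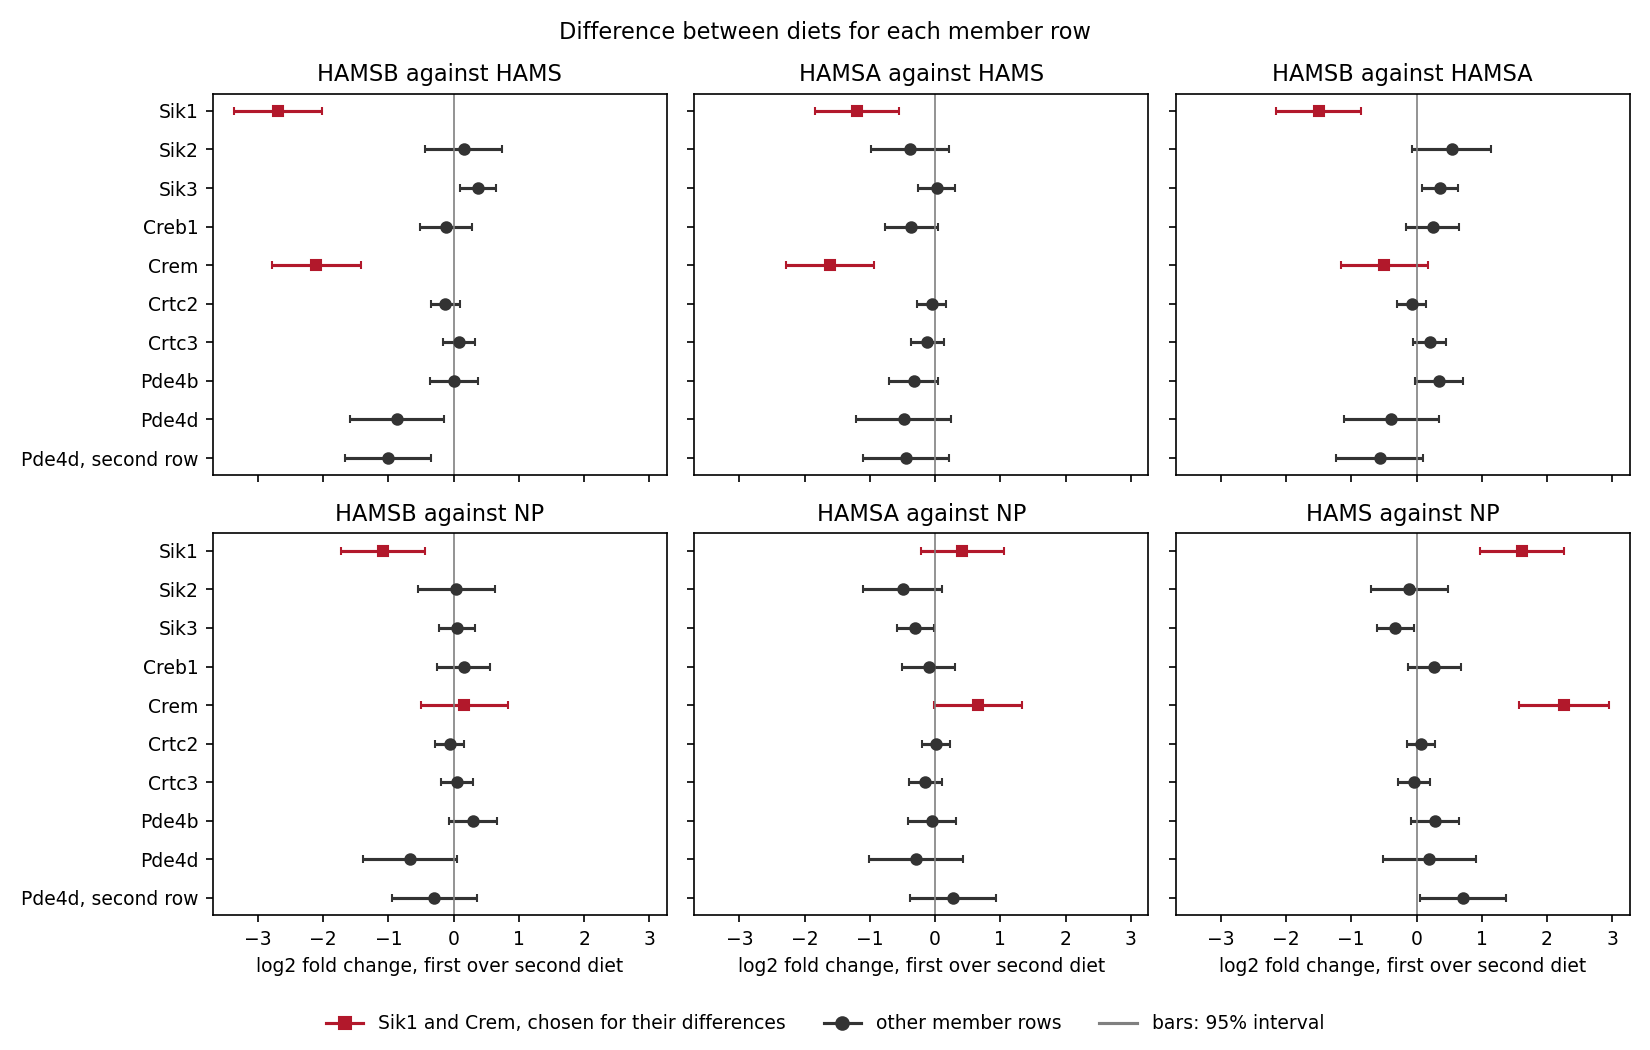
Log2 fold changes of the 10 genes in the 6 comparisons of diets from the edgeR fit, with 95% intervals as bars. Sik1 and Crem, drawn apart because they chose the set, reach −2.70 and −2.10 in HAMSB against HAMS, while the 8 other genes lie between −1.01 and 0.71 over all comparisons.

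Beyond the members, 69 genes of the pathway were listed by role, and 66 passed the filter on low counts (Adora2b, Pkia and Areg did not). The lists were made with earlier results of these data known, so counts above the share of all genes are a description here. In HAMSB against HAMS 6 of the 66 fell, where 1.24% of all genes did, and 0 rose, with a median log2 fold change of −0.11 against 0.01 over all genes. Among the 12 CREB targets 4 fell, and the other 2 were a 14-3-3 gene and a calcineurin gene. In HAMS against NP 12 rose, where 2.27% of all genes did, and 0 fell (median 0.17 against 0.01 over all genes), among them 5 of the 12 CREB targets and 4 of the 6 14-3-3 genes. In HAMSA against HAMS 0 of the 66 passed by edgeR's test, and 15 had an unadjusted p under 0.05 (11.7% of all genes did). DESeq2 called 3 of the 66 there, and 103 of 15010 genes in all. In HAMSB against NP 0 passed, 6 had an unadjusted p under 0.05 (6.89% of all genes did) and DESeq2 called 0.

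Dusp1, a phosphatase of MAP kinases and a CREB target, averaged 11.03 ± 1.81 CPM in HAMSB against 53.0 ± 10.7 in HAMS (SD, n = 4; log2 fold change −2.27 ± 0.25, adjusted p = 0.000312, edgeR). Nr4a3, an orphan nuclear receptor, averaged 4.54 ± 0.535 CPM in HAMSB against 14.2 ± 4.21 in HAMS (−1.65 ± 0.30, adjusted p = 0.00943). Its relative Nr4a1 averaged 37.6 ± 4.66 CPM in HAMSB against 91.5 ± 23.2 in HAMS (−1.28 ± 0.19). The AP-1 gene Junb was at −0.59 ± 0.12, the 14-3-3 gene Ywhah at −0.76 ± 0.14 and Ppp3ca, a catalytic subunit of calcineurin, which dephosphorylates CRTC proteins, at −0.59 ± 0.13. In each of these 6 genes all HAMSB libraries were below all HAMS libraries, as for 4.11% of all genes. The 6 were named for passing the test in this comparison, so their separation adds no evidence. With 1 library left out, the count of 6 ranged between 4 and 8. Junb lost its call in 5 of the 8 omissions (HAMSB libraries 1, 2 and 6, HAMS libraries 4 and 6), with an adjusted p of up to 0.0808, and Ppp3ca lost it in 6 (the same libraries and HAMS library 5), with an adjusted p of up to 0.108 (edgeR). Dusp1, Nr4a1, Nr4a3 and Ywhah passed in all 8. In the same comparison 6 of the 11 handling genes fell and 0 rose, with a median log2 fold change of −0.98, and their part in the differences of Sik1, Crem and the CREB targets was not tested.

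In HAMS against NP Dusp1 rose, and averaged 53.0 ± 10.7 CPM in HAMS against 14.7 ± 3.98 in NP (1.85 ± 0.25). Nr4a3 rose by 1.81 ± 0.31 on the log2 scale, Nr4a1 by 1.54 ± 0.19 and Junb by 0.72 ± 0.12. Of the 14-3-3 genes, Ywhah rose by 0.66 ± 0.13, Ywhaz by 0.58 ± 0.10, Ywhae by 0.39 ± 0.10 and Ywhag by 0.39 ± 0.09. Ppp3ca rose by 0.79 ± 0.13, and Prkar1a, a regulatory subunit of PKA, rose by 0.40 ± 0.09 (adjusted p between 0.000762 and 0.0372 for the 10 genes named, edgeR). The count of 12 fell to 6 without HAMS library 4, NP library 3 or NP library 5 and to 7 without HAMS library 6 or NP library 4. The 6 genes called without HAMS library 4 were Dusp1, Nr4a1, Nr4a3, Junb, Ywhaz and Ppp3ca. Of the 11 handling genes 6 rose in this comparison and 0 fell.

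In HAMSB against HAMSA 2 pathway genes fell, Dusp1 (−1.26 ± 0.25, adjusted p = 0.0273) and Junb (−0.71 ± 0.12, adjusted p = 0.0187, edgeR), where 0.586% of all genes fell, and 0 rose. All 11 handling genes had lower values in HAMSB than in HAMSA, with a median log2 fold change of −0.94 and 1 of them called lower. The count was 0 without HAMSB library 1 or HAMSB library 6, 1 without HAMSB library 5, HAMSA library 1 or HAMSA library 2, and 4 without HAMSA library 6. In HAMSA against NP 3 rose, where 0.606% of all genes did, and 0 fell: Fos (3.43 ± 0.74, adjusted p = 0.0395), Fosb (2.17 ± 0.46, adjusted p = 0.0381) and Junb (0.84 ± 0.13, adjusted p = 0.0197), all AP-1 subunits. All 11 handling genes had higher values in HAMSA than in NP, with a median log2 fold change of 0.95 and 1 of them called higher, and their part in the differences of these comparisons was not tested. Fos averaged 13.9 ± 16.03 CPM in HAMSA against 1.29 ± 0.241 in NP, with an SD above the mean in HAMSA. The count in that comparison was 0 without HAMSA library 2, NP library 4 or NP library 5, 1 without HAMSA library 1, NP library 1 or NP library 3, and 5 without HAMSA library 6. Fos did not pass in HAMSB against HAMS, where it stood at 3.72 ± 2.13 CPM in HAMSB against 4.21 ± 1.88 in HAMS.

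Calls were rare in the upstream part of the pathway, as among all genes, of which 2.27% were called higher in HAMS against NP. None of the 6 tested Gs-coupled receptors, 5 adenylyl cyclases and 7 other phosphodiesterases passed in any comparison. Adcy3 had an adjusted p of 0.0509 in HAMS against NP (edgeR). Among 8 PKA subunits and inhibitors, Prkar1a in HAMS against NP was the single call, which it lost in 5 of the 8 omissions of 1 library. Pkig had an adjusted p of 0.0563 in HAMSB against HAMSA (edgeR).

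For the CREB target list 12 promoter windows of 11 genes were found, 2 of them for Per1. These were not the 12 tested targets: Gem and Il10 had no window, and Areg, which did not pass the filter on low counts, was included. Every window held TGACG or its reverse complement, in a list chosen for being known CREB targets. The palindrome was in 2 windows, those of Areg and Dusp1. The windows of Dusp1 (chr17:26508423-26508722, minus strand, palindrome included) and Nr4a3 (chr4:48045055-48045354, plus strand, 4 matches) are shown because these genes were among those closest in pattern to Sik1 and Crem. Matches are again in capitals.
Dusp1: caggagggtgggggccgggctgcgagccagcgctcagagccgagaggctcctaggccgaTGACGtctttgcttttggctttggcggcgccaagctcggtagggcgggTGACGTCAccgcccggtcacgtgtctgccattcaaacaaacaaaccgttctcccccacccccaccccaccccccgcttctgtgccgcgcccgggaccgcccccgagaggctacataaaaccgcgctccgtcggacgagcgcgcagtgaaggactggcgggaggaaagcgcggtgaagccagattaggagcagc
Nr4a3: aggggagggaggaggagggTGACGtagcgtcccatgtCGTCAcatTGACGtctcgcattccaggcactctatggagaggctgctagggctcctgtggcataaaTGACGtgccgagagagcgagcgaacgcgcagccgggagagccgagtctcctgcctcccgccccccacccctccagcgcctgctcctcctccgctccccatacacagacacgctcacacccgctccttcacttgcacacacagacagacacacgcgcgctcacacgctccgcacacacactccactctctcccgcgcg

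**Figure D4:**
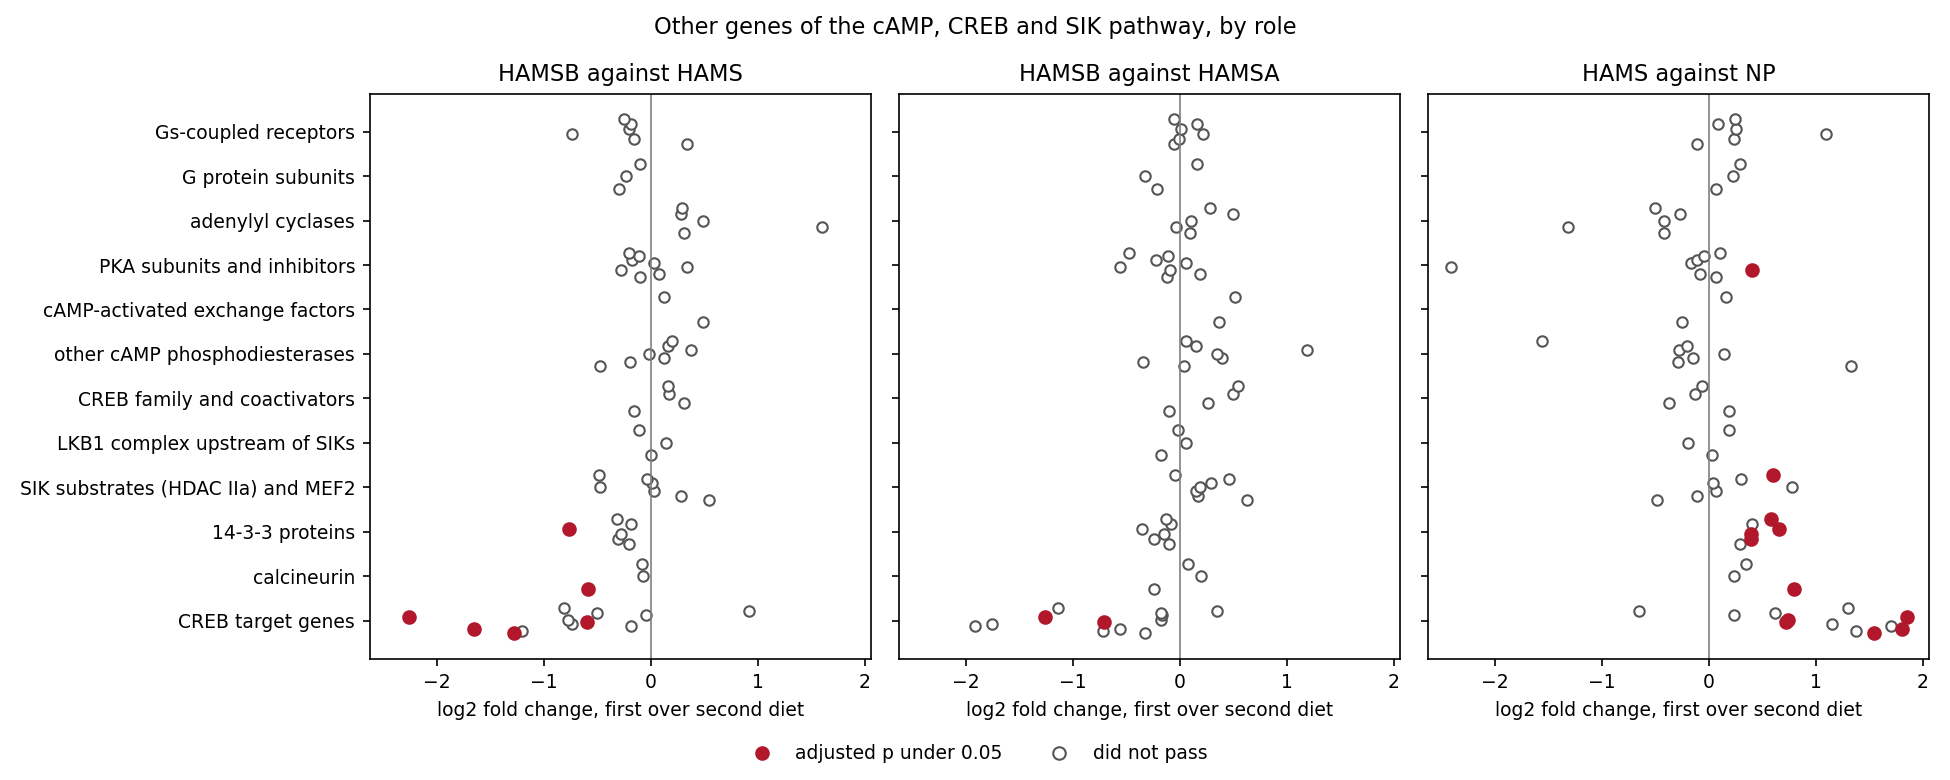
Log2 fold changes of the tested pathway genes in HAMSB against HAMS, HAMSB against HAMSA and HAMS against NP, one point per gene arranged by role, with genes that passed the edgeR test filled. CREB targets hold 4 of the 6 calls in HAMSB against HAMS, both calls in HAMSB against HAMSA and 5 of the 12 in HAMS against NP.

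Likeness to Sik1 and Crem was measured as Pearson's r of log2 CPM over the 16 libraries among 10226 genes with an average log2 CPM of at least 1. The libraries share diets, depth and composition, so r is a description here. Closest to Sik1 were Tsc22d3, a glucocorticoid-induced regulator known as GILZ (r = 0.973), Zfp36l2, an RNA-binding protein of mRNA decay (0.970), the chemokine receptor gene Cxcr4 (0.951), Dusp1 (0.939) and Sc5d, an enzyme of cholesterol synthesis (0.926). Tsc22d3 averaged 194 ± 30.4 CPM in HAMSB, 425 ± 172 in HAMSA, 783 ± 82.5 in HAMS and 320 ± 88.4 in NP (SD, n = 4), the same order of diet means as Sik1. Closest to Crem were Tpm4, a tropomyosin (0.965), Nr4a3 (0.963), B3gnt7, a glycosyltransferase (0.962), Scd1, a fatty acid desaturase (0.962), and Litaf (0.958). B3gnt7 averaged 10.98 ± 3.04 CPM in HAMSB, 28.3 ± 30.8 in HAMSA, 106 ± 44.6 in HAMS and 11.7 ± 2.55 in NP. Between Sik1 and Crem r was 0.846, with 44 genes closer to Sik1 and 121 closer to Crem. The lists of 5 did not share a gene.

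Within diets, where the choice of the set played no part through diet means, Sik1 and Crem varied together, as did other pairs of members. Deviations of log2 CPM from the diet mean gave Pearson's r = 0.677 (two-sided permutation p = 0.00294, adjusted p = 0.0265 over 9 relations, 16 libraries) and Spearman's rho = 0.788 (permutation p = 0.00257, adjusted p = 0.0185). Without HAMSA libraries 6 and 2, the farthest from the median of Sik1, r was 0.646. When deviations were taken within diet and number class (numbers 1 to 4, numbers 5 and 6), r was 0.44 with a permutation p of 0.0652, so the relation did not pass within these classes. Sik1 and Creb1 gave r = 0.663 (permutation p = 0.0174, adjusted p = 0.0784) and rho = 0.732 (adjusted p = 0.0185). Without HAMSA libraries 6 and 2 that r was 0.547, and within diet and number class it was 0.46 (permutation p = 0.324). Sik1 and Pde4b gave r = 0.571 (permutation p = 0.165, adjusted p = 0.271) and rho = 0.618 (adjusted p = 0.0310). Without the same libraries r was 0.345, and within diet and number class it was 0.049 (permutation p = 0.877), so neither relation passed within these classes. The remaining 6 relations had adjusted p of 0.0795 or more by either measure, with r between −0.21 and 0.52. Pairs of members without Sik1 are given as r alone. Crem gave a higher r with Sik2 (0.751), Pde4b (0.717) and Creb1 (0.701) than with Sik1. With the rest its r lay between −0.27 and 0.50. Over all pairs of members r ran from −0.66 (Crtc2 and Pde4d) to 0.89 (Sik2 and Pde4b). Whether Sik1 and Crem varied together more than other genes of these libraries was not tested. HAMSA library 6, high in Sik1 and Crem, also had the highest handling sum of its diet, at 2013 CPM. Most of that sum came from the heat shock genes Hsph1 (721 CPM), Hspa8 (522 CPM) and Dnajb1 (242 CPM). Of the immediate early genes, Ier2 (119 CPM) was the highest of its diet, while Egr1 (20.3 CPM) and Zfp36 (302 CPM) were the lowest.

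**Figure D5:**
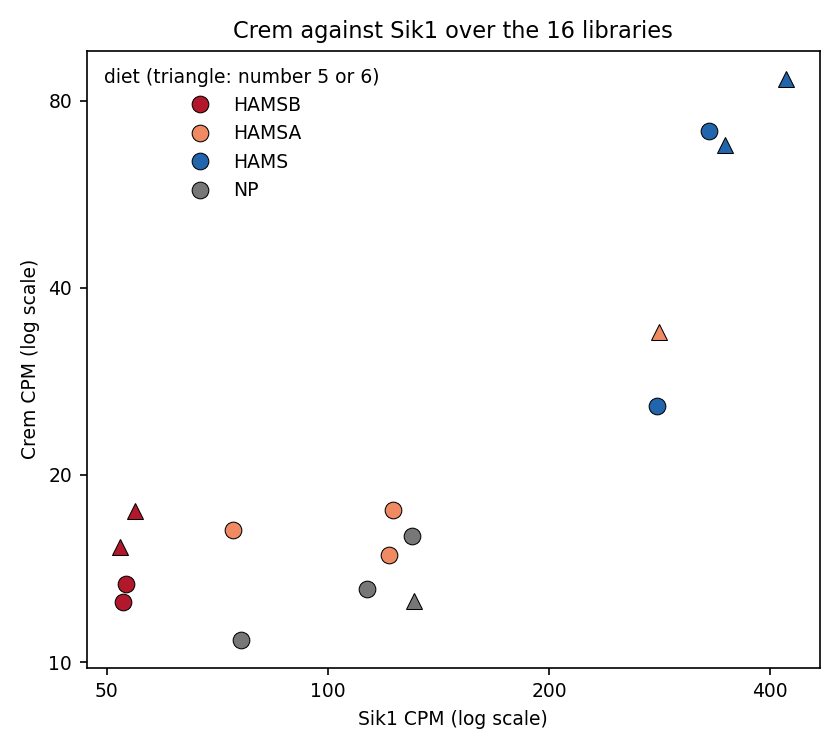
Crem against Sik1 in CPM, both axes logarithmic, one point per library with the diet given by colour and triangles for numbers 5 and 6. HAMSB libraries lie at 52.1 to 54.6 CPM of Sik1, and HAMSA library 6 and HAMS library 1 lie close together at 283 and 280 CPM of Sik1.

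Sik2 deviations within diets also followed the share of reads outside annotated exons, with r = 0.793 (permutation p = 0.00615, adjusted p = 0.0615 over 10 relations) and rho = 0.8294 (permutation p = 0.00309, adjusted p = 0.0309; r = 0.791 without HAMS libraries 4 and 5). For Sik1 the same relation gave r = 0.292 (permutation p = 0.172, adjusted p = 0.284) and for Crem r = 0.317 (permutation p = 0.431, adjusted p = 0.479). Over the other 7 genes the adjusted p was 0.0578 or more by either measure. The relation was not particular to Sik2. Without HAMS libraries 4 and 5, r was 0.882 for Sik3, 0.833 for Crtc3 and −0.824 for the second Pde4d identifier (0.540, 0.371 and −0.531 with all libraries). For the remaining members it lay between −0.435 and 0.618 without these libraries.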

How the data were processed

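RNA of 16 libraries was analysed, 4 per diet. Per the submitters' processing notes, reads went through STAR, featureCounts (Subread), edgeR and limma. Versions, genome build and annotation are not given in the sources used here. What the authors deposited is an unscaled read count per gene and library, which its name gives as reverse-stranded. Isoforms are not separated. Because 253 genes carry a symbol already used, identifiers told genes apart. Coordinates and exon lengths come from GENCODE M21 (GRCm38), which may not be the authors' annotation.

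The counts were fitted with edgeR 4.0.16 (R 4.3.3). The expression filter (minimum count 10) left 15021 genes, scaling was by TMM, and the model held 1 mean per diet over all 16 libraries (12 residual degrees of freedom). Diets were compared pairwise with the quasi-likelihood F-test and Benjamini-Hochberg adjustment over all 15021 genes. CPM use TMM-scaled totals, and log2 CPM add a prior count of 2. Libraries of 1 diet varied by 22.1% around a gene's level. Relations within diets used 100000 permutations within diets. The functions were tested on simulated data. No 2 libraries of a diet matched within counting noise (chi-square per degree of freedom 10.4 or more).

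All members were named, and of the pathway genes that passed a test up to 10 per comparison, by smallest p. The 5 genes nearest in pattern to Sik1 and to Crem were named too. The members and lists were chosen with earlier results of these data known. Fos in HAMSB against HAMS was named after its value was seen. Other settings were DESeq2 1.42.0, RLE factors, raw library totals, all genes unfiltered, a block for replicate number, a covariate for reads outside exons, fits of only the 2 diets, each number class alone and the omission of each library.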

Additional observations from a re-analysis of the deposited data

Results flagged for a closer look

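Crem in HAMSA library 6 stood at 33.9 CPM, while the other 3 HAMSA libraries stood at 14.8 to 17.6 CPM. The gap to its nearest neighbour was 0.857 of the range of the diet, above Dixon's 95% critical value for 4 libraries. It was the 1 such case among 40 groups of 4 libraries (10 genes in 4 diets), where chance gives about 1 in 20.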

How the results depend on the processing

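Each result was recomputed under other settings. Of the 245 values so obtained for counts of calls and summary results, 194 kept their direction and side of the threshold (counts within 1.5 times). Of the 782 values for single-gene differences, 634 kept direction and side, and 9 changed sign. The calls of Sik1 and Crem in HAMSB against HAMS and HAMS against NP held in every setting run. As these genes chose the set in the same libraries, this is a description and no support. DESeq2 called more: 2 members in HAMSA against HAMS, 1 in HAMSB against NP, and 3, 7, 11 and 19 pathway genes in HAMSA against HAMS, HAMSB against HAMSA, HAMSA against NP and HAMS against NP. Of all genes it called 103 of 15010, 600 of 11807, 1295 of 15010 and 1264 of 15010 in the comparisons given for pathway genes, in that order. In HAMSB against NP it called 124 of 15010. The member call in HAMSB against HAMSA was lost (0) with the replicate block, the covariate, only the 2 diets and numbers 1 to 4. Pathway counts in HAMSB against HAMSA were 0 with the block, the covariate and only the 2 diets and 1 within either number class. In HAMSA against NP they were 0 with the block and 1 with the covariate and only the 2 diets. Within numbers 1 to 4 they were 16 in that comparison, where 2694 of 15350 genes were called. Within numbers 5 and 6 they were 3 in HAMSB against HAMS and 1 in HAMS against NP. Within numbers 1 to 4, member calls were 1 in HAMSA against NP and 4 in HAMS against NP, where 2694 and 1250 of 15350 genes were called. The within-diet correlation of Sik1 and Crem was 0.44 within number classes, and those of Sik1 with Creb1 and Pde4b were 0.46 and 0.049, a setting chosen after seeing the data. Signs changed for Sik2 in HAMSB against HAMSA (−0.21, covariate) and, within numbers 1 to 4, for Sik3 (−0.23) and Crem (−0.048) in HAMSB against NP. The cause of these changes was not tested, and number classes alone hold fewer libraries.

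With 1 library left out, member calls ranged 0 to 2 in HAMSA against HAMS and 0 to 1 in HAMSB against HAMSA. Pathway calls ranged 0 to 1 in HAMSA against HAMS, 0 to 4 in HAMSB against HAMSA, 0 to 5 in HAMSA against NP and 6 to 13 in HAMS against NP. Log2 fold changes ranged −0.087 to 0.64 for Sik1 in HAMSA against NP, −0.062 to 0.066 for Sik3 in HAMSA against HAMS and −0.026 to 0.15 for Sik3 in HAMSB against NP. Differences of members given in the report only as ranges (37, with 629 values) changed sign 59 times and passed 2 times, both for Sik2 within numbers 1 to 4.

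The replicate numbers were not taken to pair the libraries, since in none of the comparisons with 3 pairs did every pair correlate above 0.1: deviations of same-numbered libraries correlated at 0.07 to 0.34 in HAMSB against HAMS, −0.06 to 0.49 in HAMSB against HAMSA and −0.07 to 0.02 in HAMS against NP. With 2 pairs each, they correlated at −0.25 to 0.26 in HAMSA against HAMS, 0.19 to 0.21 in HAMSB against NP and 0.001 to 0.22 in HAMSA against NP. The number classes did share structure in HAMSB against HAMS. There, libraries of the same class correlated at 0.07 to 0.49 and libraries of different classes at −0.41 to −0.14. This was not so in every comparison, with −0.07 for HAMS library 1 and NP library 1. What the classes stand for was not tested. With the replicate block, 3 members (Sik1, Crem and Sik3) and 5 pathway genes were called in HAMSB against HAMS, 0 and 0 in HAMSB against HAMSA, 0 pathway genes in HAMSA against NP, and 2 members and 8 pathway genes in HAMS against NP. HAMSA libraries were the shallowest, and the part of depth in these counts was not tested.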
